A study of Homo sapiens with 15 samples.

Results

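The genes described here encode aminoacyl-tRNA synthetases, the enzymes that join each amino acid to its matching transfer RNA. They were chosen by symbol from the table of read counts per gene. All 36 symbols on the list were among the 13243 genes tested, 20 for enzymes of the cytosol and 16 for enzymes of the mitochondrion. The cytosolic symbols carry no number and the mitochondrial ones end in 2.

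HEK293T, an established human embryonic kidney cell line, was incubated for 4 h with thapsigargin (Tg), with IXA1, with IXA4, with IXA6, or with the solvent DMSO. Per the series' design text, the IXA compounds switch on IRE1/XBP1s signalling, a single arm of the unfolded protein response, whereas Tg triggers all of its arms. Tg, IXA4, IXA6 and DMSO had 3 libraries each and IXA1 had 2, and the labels name the replicates as independent experiments. The labels also give IXA1 replicate 3, for which no count column carried a matching name. A column named for an IXA compound that no label gives was not used. Whether it holds that sample is not known, so every IXA1 value computed here rests on 2 libraries. Doses, and the structures of the IXA compounds, were not given in the sources used here. Total counts per library lay between 14160321 and 15726742. The lowest count of a listed enzyme in any library was 191, for FARS2. All 7 marker genes listed as expressed in this cell line were in the table, and 7 of 10 markers of other cell types were not among its genes. The markers CD68, COL1A1 and GFAP were in the table, at no more than 3.12, 14.3 and 0.935 CPM (counts per 1000000 library counts) in any library. Of the 7 markers of this cell line, PAX2 and KRT8 were also low, at no more than 1.81 and 6.41 CPM in any library. VIM, NEFM, INA, LIN28B and KRT18 had at least 14.6 CPM in every library.

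Every protein made on cytosolic ribosomes, including those that enter the endoplasmic reticulum (ER), depends on the cytosolic synthetases. The mitochondrial enzymes are encoded in the nucleus, imported, and serve the separate ribosomes that make respiratory chain subunits. GARS and KARS, the glycine and lysine enzymes, each serve both compartments from a single gene. When ER stress activates the kinase PERK, general translation slows while the transcription factor ATF4 is made. ATF4 is known to bind, with C/EBP partners, an element in the promoters of amino acid metabolism genes that includes many cytosolic synthetases. Tg empties the ER of calcium by blocking its calcium pump, and so activates PERK as well as IRE1 and ATF6. The same output of PERK and ATF4, when shared with other eIF2 kinases, is called the integrated stress response.

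The core of that element, TGATGCAA or its looser form TGATGNAA, was looked for on both strands of promoter windows that run from 250 bases before to 50 bases after a transcript start. The windows were RefSeq sequences of build GRCh38.p14. A window was found for 30 of the 36 enzymes, 16 cytosolic and 14 mitochondrial, and 9 enzymes had more than 1 window. DARS, LARS, VARS, YARS, AARS2 and VARS2 had none in the table used here. Of the 16 cytosolic enzymes with a window, 6 held TGATGCAA, and 0 of the 14 mitochondrial enzymes did. By comparison, 0.866% of all 35116 windows held it. The looser form, which contains the first, added GARS through 1 of its windows and the mitochondrial YARS2, and 3.62% of all windows held it. The 64 bases around each match are printed 5′ to 3′ on the gene's strand with the match in capitals, because they show how the same letters recur at different places near the start. A match written TTGCATCA is the core on the opposite strand.
AARS, chr16:70289658-70289721, minus strand: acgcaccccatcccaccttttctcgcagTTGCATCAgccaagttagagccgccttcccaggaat
CARS, chr11:3057390-3057453, minus strand: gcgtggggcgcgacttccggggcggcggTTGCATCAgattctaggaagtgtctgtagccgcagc
IARS, chr9:92293675-92293738, minus strand: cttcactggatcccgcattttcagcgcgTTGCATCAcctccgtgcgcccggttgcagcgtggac
MARS, chr12:57488036-57488099, plus strand: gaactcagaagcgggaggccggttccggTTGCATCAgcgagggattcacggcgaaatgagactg
NARS, chr18:57621787-57621850, minus strand: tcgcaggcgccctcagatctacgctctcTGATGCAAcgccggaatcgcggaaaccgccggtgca
TARS, chr5:33440939-33441002, plus strand: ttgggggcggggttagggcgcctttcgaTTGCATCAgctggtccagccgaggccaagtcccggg
GARS, chr7:30594817-30594880, plus strand: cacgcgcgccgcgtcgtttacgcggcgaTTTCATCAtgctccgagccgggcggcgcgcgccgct
YARS2, chr12:32756059-32756122, minus strand: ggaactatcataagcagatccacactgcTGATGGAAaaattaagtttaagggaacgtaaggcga

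With the first base of the transcript as position 1 and no position 0, the match began at -187 in AARS, at -13 in IARS, at -4 in MARS and at -2 in CARS. It began after the start in TARS, at position 3, and in NARS, at position 15. RARS, the arginine enzyme, has a window with no match. It was picked from the enzymes that were not called with Tg, as defined below. Of the 10 cytosolic enzymes with a window and no TGATGCAA, 6 were called higher with Tg, so RARS does not stand for them all. The whole RARS window follows for comparison.
RARS, chr5:168486221-168486520, plus strand: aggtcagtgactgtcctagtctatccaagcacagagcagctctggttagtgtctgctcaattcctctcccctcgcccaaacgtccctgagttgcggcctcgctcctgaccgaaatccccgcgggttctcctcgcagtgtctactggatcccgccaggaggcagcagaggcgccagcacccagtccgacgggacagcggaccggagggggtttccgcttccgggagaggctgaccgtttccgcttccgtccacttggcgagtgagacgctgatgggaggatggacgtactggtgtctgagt
A missing match says only that these letters are not in this window.

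With Tg, 15 of the 20 cytosolic enzymes rose and none fell, while the mitochondrial enzymes split into 5 that rose, 5 that fell and 6 that did not pass the test. A change is called here at an adjusted p below 0.05 from the quasi-likelihood test of edgeR, with Benjamini-Hochberg adjustment over all 13243 genes. Tg called 35.8% of all genes, 18.8% higher and 17.0% lower. Of all genes, 21.7% had every Tg library above every DMSO library and 21.8% had every Tg library below, and all 25 called enzymes were of these kinds. The median log2 fold change was 0.42 over the 20 cytosolic enzymes, 0.014 over the 16 mitochondrial enzymes and -0.0077 over all genes. DESeq2 called 15 cytosolic and 9 mitochondrial enzymes, among 4440 genes called in all. The authors' deposited table for Tg, whose header names no reference group, lists the same 15 cytosolic enzymes as higher at an adjusted p below 0.05. Of the mitochondrial enzymes, the authors' deposited table lists 4 as higher, without MARS2, and 2 as lower, LARS2 and TARS2.

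The 3 largest rises belonged to the enzymes for alanine, cysteine and glycine. AARS, the alanine enzyme, had 316, 342 and 317 CPM in the Tg libraries, against 183, 172 and 169 CPM in the DMSO libraries. Its log2 fold change was 0.90 (SE 0.05, edgeR adjusted p = 1.7e-13). Every Tg library lay far above every DMSO library. CARS, which charges cysteine tRNA, had 92.4, 105 and 96.8 CPM with Tg and 55.7, 54.0 and 49.4 CPM with DMSO. Its log2 fold change was 0.89 (SE 0.06, edgeR adjusted p = 1.06e-10), again with no overlap. GARS had 546, 583 and 583 CPM with Tg, against 296, 310.5 and 323 CPM with DMSO, a log2 fold change of 0.88 (SE 0.05, edgeR adjusted p = 1.37e-13). The 3 Tg libraries agreed closely and none came near the DMSO range.

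The tryptophan, threonine, serine, asparagine and tyrosine enzymes followed. WARS, the tryptophan enzyme, had 285, 329.7 and 314 CPM with Tg and 189.5, 184 and 184 CPM with DMSO, a log2 fold change of 0.74 (SE 0.05, edgeR adjusted p = 1.89e-11). TARS, the threonine enzyme, had 858, 769.9 and 856 CPM with Tg and 478, 514 and 516 CPM with DMSO, a log2 fold change of 0.72 (SE 0.05, edgeR adjusted p = 1.23e-10). In both genes the lowest Tg library stood well clear of the highest DMSO library. SARS, which supplies seryl-tRNA for serine and, as its first step, for selenocysteine, had 357, 400.1 and 380.4 CPM with Tg and 235, 238 and 257 CPM with DMSO. Its log2 fold change was 0.64 (SE 0.05, edgeR adjusted p = 1.83e-10). The groups did not overlap. NARS, for asparagine, had 364, 324 and 343 CPM with Tg and 219.7, 243 and 235 CPM with DMSO, a log2 fold change of 0.56 (SE 0.05, edgeR adjusted p = 1.24e-08). YARS, for tyrosine, had 445, 533 and 508 CPM with Tg and 347, 337 and 337 CPM with DMSO, a log2 fold change of 0.54 (SE 0.05, edgeR adjusted p = 2.97e-08). Relative to its mean, YARS was the most uneven of these 8 genes among the Tg libraries, and its lowest Tg value still exceeded all DMSO values.

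**Figure D1:**
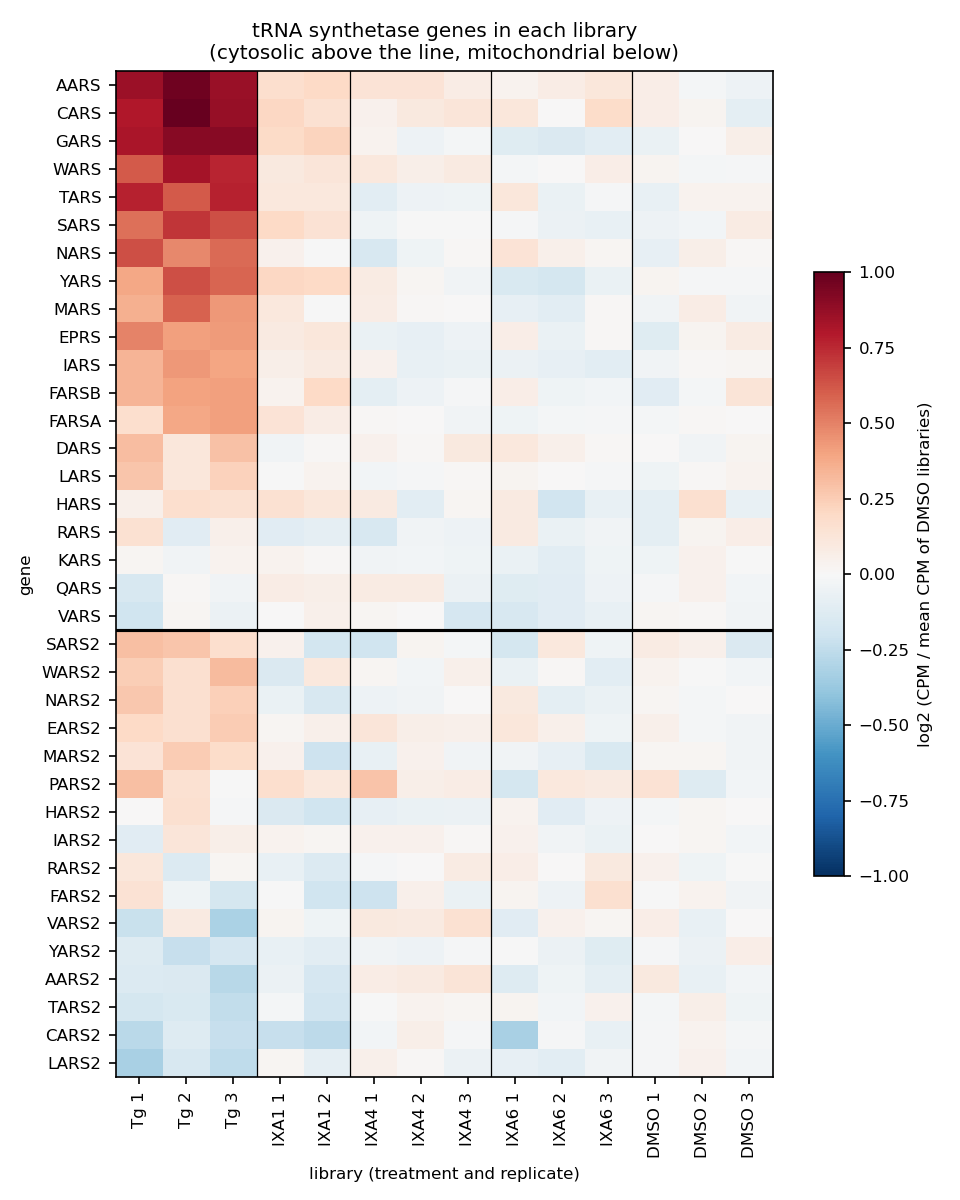
Each row is a gene and each column a library, ordered by treatment; colour gives log2 of the CPM over the mean CPM of the 3 DMSO libraries, from blue (lower) to red (higher). The 3 Tg columns are red over the upper 15 cytosolic rows and mixed below the line, where 5 mitochondrial genes rose and 5 fell, and the IXA columns stay pale throughout.

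Smaller rises came from MARS (methionine), EPRS (glutamate and proline in a single protein), IARS (isoleucine), the phenylalanine enzyme's subunits FARSB and FARSA, DARS (aspartate) and LARS (leucine). Their log2 fold changes were 0.46, 0.44, 0.39, 0.39, 0.32, 0.24 and 0.21 in that order, and each had libraries that did not overlap those of DMSO. FARSA and FARSB, which must pair to form the enzyme, had overlapping 95% intervals of 0.22 to 0.43 and of 0.27 to 0.50. The same 15 genes were called in every alternative tried, except that DARS, FARSA and LARS were not called when a fold of at least 1.2 was demanded. MARS shares 62 exon bases with DDIT3, a stress gene on the opposite strand that averaged 113 CPM with Tg and 5.86 CPM with DMSO. The sources used here do not say whether counting used strand. The rise of MARS by 77.3 CPM, against 108 CPM for DDIT3, is therefore uncertain. Opposite-strand exon overlaps with other genes of the table touch HARS with HARS2, WARS with WDR25, YARS with S100PBP, EARS2 with UBFD1 and SARS2 with MRPS12. None of those other partners was called higher with Tg. CARS, DARS, GARS, LARS, WARS, FARSA, AARS2, NARS2 and WARS2 share exon bases with opposite-strand genes that were not in the table. The changes of those partners with Tg are not known. SARS2 also shares exon bases with a same-strand gene that was not in the table. The GENCODE v29 annotation names pseudogenes after AARS, CARS, FARSB, GARS, KARS, NARS, RARS, WARS, IARS2, TARS2 and WARS2. The counting could have split reads between these genes and their copies, which leaves small changes in them less certain.

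The 5 cytosolic enzymes that did not pass the test were those for histidine, arginine, lysine, glutamine and valine. HARS had a log2 fold change of 0.12 (95% interval -0.03 to 0.27), RARS 0.04 (-0.09 to 0.16), KARS 0.00 (-0.08 to 0.09), QARS -0.06 (-0.17 to 0.05) and VARS -0.08 (-0.19 to 0.04). KARS had 286, 275 and 289 CPM with Tg and 275, 291 and 282 CPM with DMSO, and the groups overlapped fully. Of the dual-compartment genes, therefore, GARS was among the largest rises and the interval for KARS reached no further than 0.09. HARS was called higher when DMSO replicate 2 was left out, at 0.21 (edgeR adjusted p = 0.041). VARS was called lower, at -0.15 (edgeR adjusted p = 0.044), with scaling by library size alone, which moved the median of all genes to -0.08.

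Grouped by assembly, 5 of the 8 synthetases of the multi-synthetase complex rose, against 10 of the 12 cytosolic enzymes that work outside it. This complex is a scaffolded particle that in mammals holds the enzymes for arginine, aspartate, glutamine, glutamate with proline, isoleucine, leucine, lysine and methionine. The median log2 fold change with Tg was 0.22 in the complex and 0.60 outside it. All 3 members of the complex that were not called, KARS, QARS and RARS, lay between -0.06 and 0.04. The difference between these groupings was not tested. Synthetases also fall into class I and class II by the fold of the active site. Among cytosolic enzymes, 7 of 10 in class I and 8 of 10 in class II rose, with medians of 0.42 and 0.48. EPRS was counted in class I by its glutamate part, although its proline part is of class II.

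**Figure D2:**
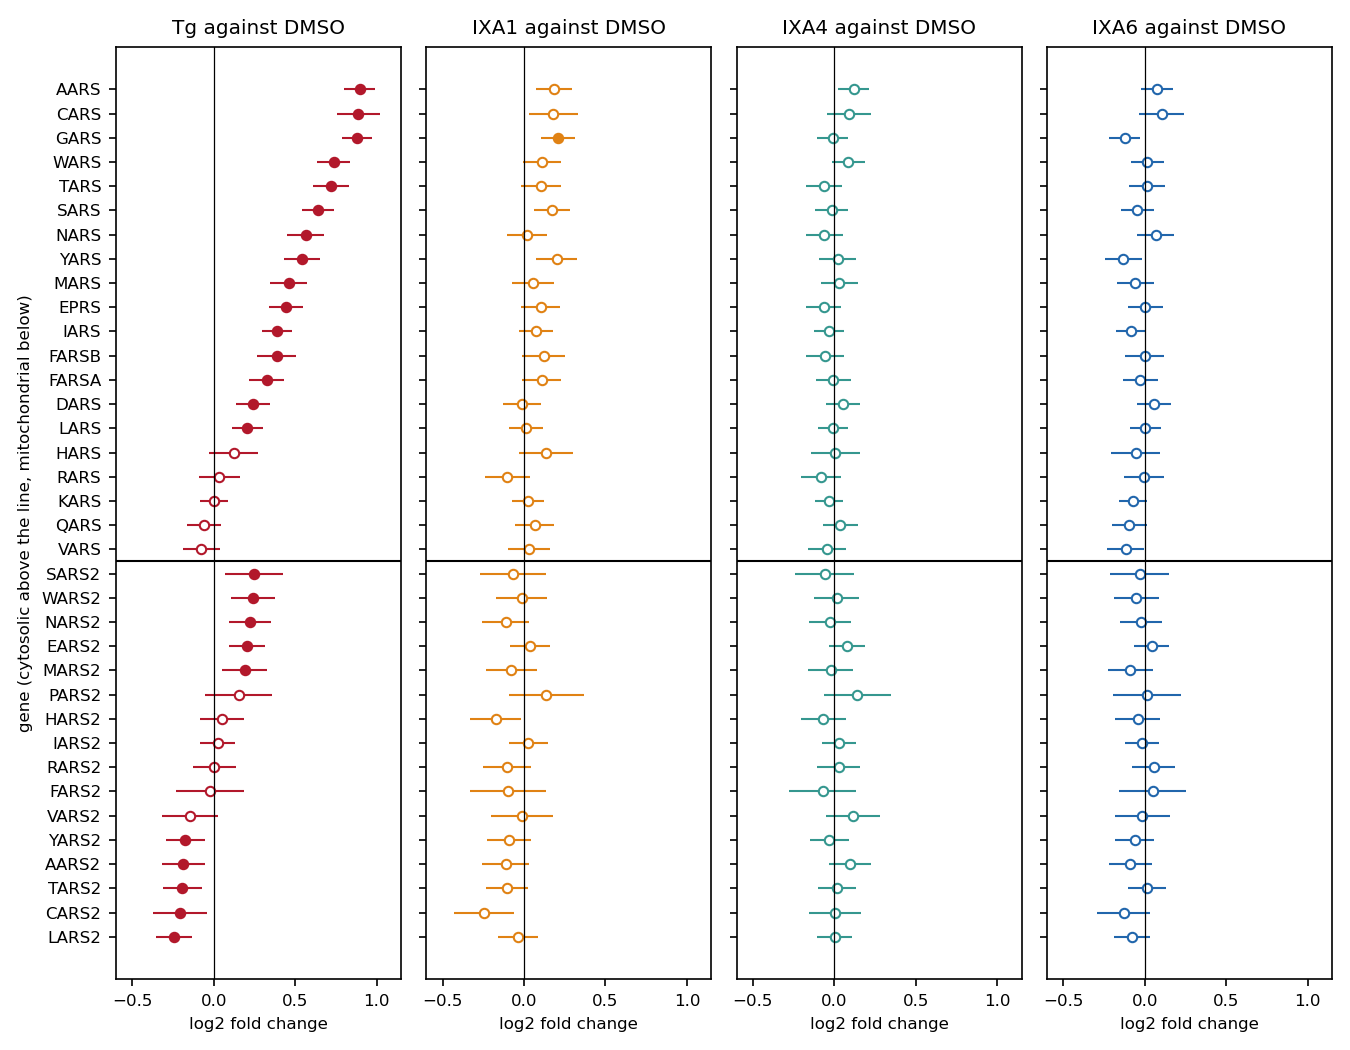
Log2 fold change against DMSO (horizontal axis) for each gene, with its 95% interval from edgeR as a line; filled points were called at an adjusted p below 0.05 and open points were not. The Tg panel runs from 0.90 for AARS to -0.25 for LARS2, while in the IXA1 panel GARS is the single filled point and the IXA4 and IXA6 panels hold none.

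The mitochondrial changes with Tg were smaller, none beyond 0.25 in size. LARS2, the mitochondrial leucine enzyme, had 96.4, 108 and 102 CPM with Tg and 119.7, 125 and 118 CPM with DMSO. Its log2 fold change was -0.25 (SE 0.05, edgeR adjusted p = 0.000856), and all Tg libraries lay below all DMSO libraries. CARS2, for cysteine, had 20.0, 22.1 and 20.6 CPM with Tg and 23.9, 24.7 and 23.8 CPM with DMSO, a log2 fold change of -0.21 (SE 0.08, edgeR adjusted p = 0.0445). TARS2, for threonine, had 76.2, 77.8 and 72.7 CPM with Tg and 85.4, 89.96 and 83.6 CPM with DMSO, a log2 fold change of -0.19 (SE 0.06, edgeR adjusted p = 0.0106). In both the groups stood apart, by a narrower margin for CARS2. AARS2, for alanine, had 47.2, 47.1 and 42.9 CPM with Tg and 55.6, 49.5 and 51.0 CPM with DMSO, a log2 fold change of -0.19 (SE 0.06, edgeR adjusted p = 0.0251). YARS2, for tyrosine, had 59.4, 55.3 and 57.8 CPM with Tg and 64.2, 62.3 and 67.9 CPM with DMSO, a log2 fold change of -0.17 (SE 0.06, edgeR adjusted p = 0.0219). Neither gene's groups overlapped, although the nearest libraries were within a few CPM.

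The 5 mitochondrial enzymes that rose with Tg were SARS2 at 0.25, WARS2 at 0.24, NARS2 at 0.22, EARS2 at 0.20 and MARS2 at 0.19. They charge the serine, tryptophan, asparagine, glutamate and methionine tRNAs of the organelle. The 6 that were not called were FARS2, HARS2, IARS2, PARS2, RARS2 and VARS2, with log2 fold changes from -0.14 to 0.15. These mitochondrial calls depended on single libraries more than the cytosolic ones did. Without DMSO replicate 3, or without Tg replicate 3, 6 of the mitochondrial enzymes were called, and 0 were called when a fold of at least 1.2 was demanded. The 5 falls became 2, LARS2 and TARS2, in a fit of the Tg and DMSO libraries alone. They became 2, LARS2 and YARS2, without Tg replicate 3, and 3 without DMSO replicate 1, 2 or 3. The 5 rises became 3 without DMSO replicate 3 or Tg replicate 2. They also became 3 with upper-quartile scaling, which lost MARS2 and SARS2. Scaling by library size alone left 2, as NARS2 was lost too. MARS2 and CARS2 were each called in 7 of 15 alternatives. EARS2, LARS2 and WARS2 were called in every alternative except that minimum fold.

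Within a library, the whole cytosolic set summed to between 7288 and 7478 CPM with Tg and between 5252 and 5519 CPM with DMSO. The sums averaged 7390 ± 96.2 CPM with Tg and 5420 ± 146 CPM with DMSO (SD, n = 3 each), so every Tg library lay above every DMSO library. The mitochondrial set summed to 1006 ± 19.5 CPM with Tg and 1005 ± 14.4 CPM with DMSO (SD, n = 3 each), and those libraries overlapped. In bulk samples a change in RNA per cell and a change in the share of cells that express a gene cannot be told apart.

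**Figure D3:**
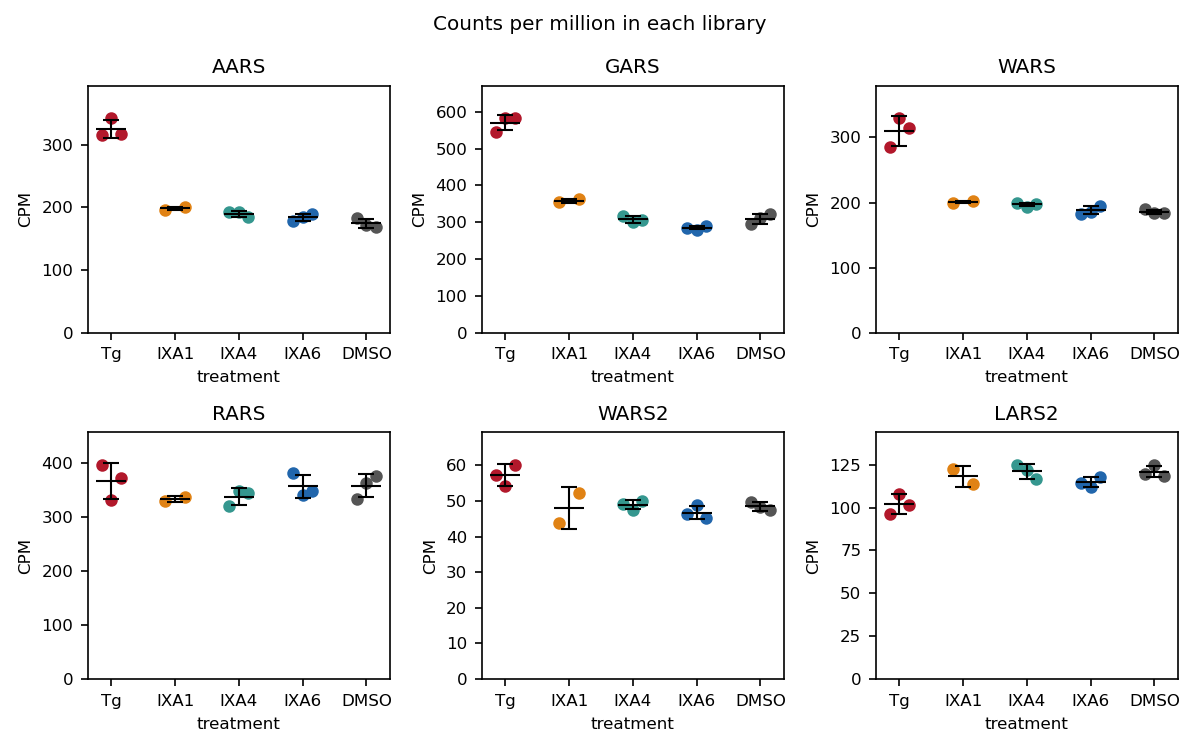
CPM in each library (coloured points) for 6 genes, with the group mean and SD in black; the vertical axes start at 0 and differ between panels. AARS, GARS and WARS separate Tg from the other 4 treatments, RARS does not, WARS2 is above DMSO with Tg and LARS2 below it.

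For 13 amino acids both a cytosolic and a mitochondrial enzyme were listed, which sets the compartments side by side within each library. With Tg the cytosolic log2 fold change exceeded the mitochondrial one in 13 of 13 pairs, by a median of 0.39 and a range of 0.03 to 1.10. The pairs for cysteine, alanine, threonine and tyrosine differed the most, by 1.10, 1.08, 0.91 and 0.72, and in each of them the mitochondrial partner fell while the cytosolic one rose. The ratio of AARS to AARS2 in counts ran from 6.69 to 7.38 in Tg libraries and from 3.29 to 3.48 in DMSO libraries. In 10 of the 13 pairs the ratios of the 3 Tg libraries did not overlap those of the 3 DMSO libraries. The exceptions were the pairs for arginine, histidine and valine, whose differences were 0.03, 0.07 and 0.07. With 3 libraries against 3, the smallest two-sided p that an exact permutation test of a ratio can reach is 0.1, and those 10 pairs reached it. With IXA1 the cytosolic change also exceeded the mitochondrial one in 13 of 13 pairs, by a median of 0.13 and by as little as 0.0039. There 7 pairs did not overlap, but with 2 libraries against 3 the smallest p of that permutation test was 0.2. All 13 pairs rest on the same 2 IXA1 libraries. The median log2 fold change of the mitochondrial enzymes was -0.15 without IXA1 replicate 1 and -0.013 without IXA1 replicate 2. With IXA4 and IXA6 the cytosolic change exceeded the mitochondrial one in 7 and 6 of the 13 pairs. With each of these compounds 3 pairs did not overlap, in either direction. Ratios of other gene pairs were not computed. Since counts were not corrected for length, the ratio is no measure of which enzyme is more abundant.

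**Figure D4:**
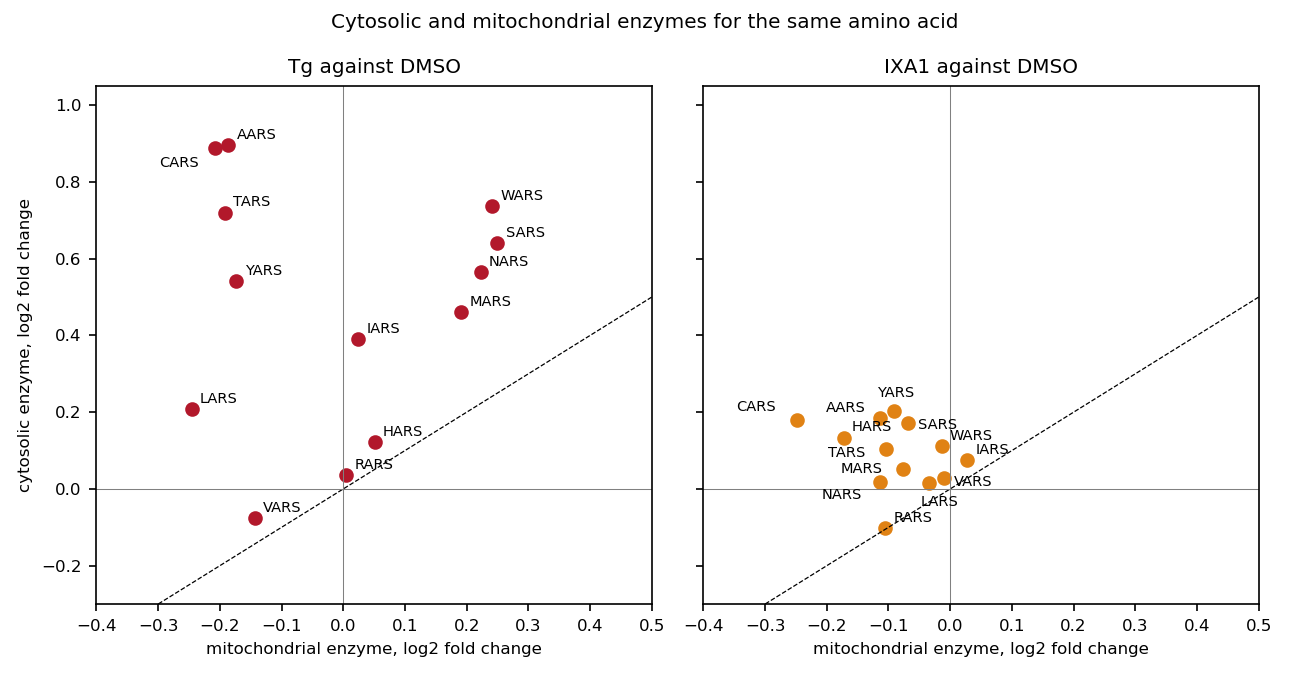
Each point is an amino acid, labelled by its cytosolic gene, with the log2 fold change of the mitochondrial enzyme on the horizontal axis and that of the cytosolic enzyme on the vertical axis; the dashed line marks equal change. With Tg the 13 points lie on or above the line, by 0.03 to 1.10, and with IXA1 by 0.00 to 0.43. The HARS pair is further from the line with IXA1 (0.31) than with Tg (0.07).

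All 6 cytosolic enzymes whose printed windows hold TGATGCAA rose with Tg, with a median log2 fold change of 0.64. These were AARS, CARS, IARS, MARS, NARS and TARS. Of the 10 cytosolic enzymes with a window and no such match, 6 rose, with a median of 0.36 over the 10. SARS and WARS were among these and rose by 0.64 and 0.74, so the presence of the letters did not mark every large rise. GARS, with the looser form, rose by 0.88, while YARS2, also with the looser form, fell by 0.17. Among all 10710 genes of the table with a window, 79 held TGATGCAA, and 29 of these, or 36.7%, were called higher with Tg. The 79 and the 29 both include the 6 enzymes named above. Among genes whose windows lacked TGATGCAA, the share was 19.3%. A match is a description of the sequence, and binding was not measured.

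**Figure D5:**
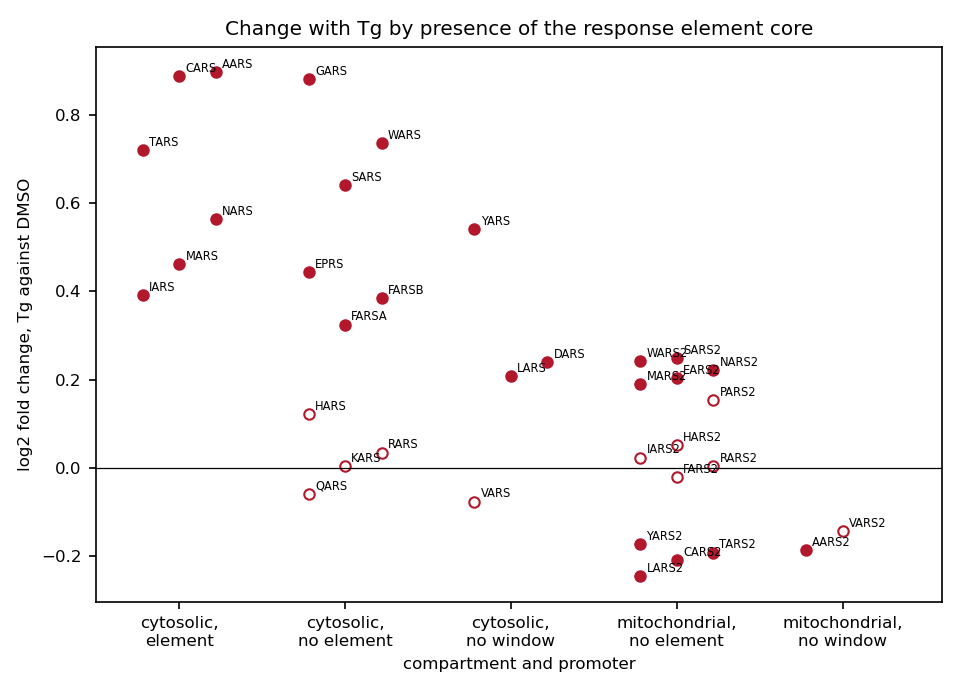
Log2 fold change with Tg (vertical axis) of each enzyme, split by compartment and by whether a promoter window holds TGATGCAA ("element"), lacks it, or was not in the RefSeq table; filled points were called. The 6 enzymes with the element span 0.39 to 0.90, and those without it span -0.06 to 0.88 among cytosolic and -0.25 to 0.25 among mitochondrial genes.

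With IXA1, GARS was the sole enzyme of the 36 to change. It had 354 and 362 CPM with IXA1, against 296, 310.5 and 323 CPM with DMSO, a log2 fold change of 0.21 (SE 0.05, edgeR adjusted p = 0.0293). Both IXA1 libraries lay above the 3 DMSO libraries. IXA1 called 2.31% of all genes in either direction, and 1.82% of all genes were called higher. The call on GARS was lost when IXA1 replicate 1, IXA1 replicate 2, DMSO replicate 1 or DMSO replicate 2 was left out (edgeR adjusted p from 0.098 to 0.258), which leaves its size at 0.18 to 0.22. Where IXA1 is left with a single library, that library is taken to vary like the others. At an unadjusted p below 0.05, 5 cytosolic and 2 mitochondrial enzymes passed, beside 15.5% of all genes. DESeq2 called 4 cytosolic and 0 mitochondrial enzymes, among 454 genes called in all.

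The other 3 that DESeq2 called with IXA1 were AARS, SARS and YARS. AARS had 196 and 200.3 CPM with IXA1, against 183, 172 and 169 CPM with DMSO, a log2 fold change of 0.18 (SE 0.05, edgeR adjusted p = 0.0656). YARS had 392 and 391 CPM with IXA1, against 347, 337 and 337 CPM with DMSO, a log2 fold change of 0.20 (SE 0.06, edgeR adjusted p = 0.0829). SARS had 279 and 269 CPM with IXA1, against 235, 238 and 257 CPM with DMSO, a log2 fold change of 0.17 (SE 0.05, edgeR adjusted p = 0.101). In these genes too the IXA1 libraries lay above all DMSO libraries, but the share of all genes with such a separation is not given here. None of them passed the threshold in the edgeR fit. The authors' deposited table for IXA1, whose header names no reference group, lists the same 4 genes, AARS, GARS, SARS and YARS, as higher at an adjusted p below 0.05. Which IXA1 libraries the authors used is not known here, and their values differ from these. The mitochondrial median with IXA1 was -0.042 in the authors' values and -0.078 with DESeq2 here. With Tg those medians were 0.016 and 0.017. Over the 20 cytosolic enzymes the median log2 fold change with IXA1 was 0.10, with 18 of 20 above 0, against -0.0053 over all genes. Leaving out DMSO replicate 1 brought that median to 0.062. Over the mitochondrial enzymes it was -0.084, with 13 of 16 below 0. That median was -0.15 without IXA1 replicate 1 and -0.013 without IXA1 replicate 2. All comparisons with DMSO use the same 3 DMSO libraries, so their values are not independent of each other.

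IXA4 and IXA6 called none of the 36 enzymes. IXA4 called 0.800% of all genes and IXA6 called 2.29%. For IXA4, edgeR passed 1 cytosolic and 0 mitochondrial enzymes at an unadjusted p below 0.05, beside 9.18% of all genes. For IXA6 it passed 3 and 0, beside 17.0%. DESeq2 called 0 enzymes with either compound, beside 138 genes in all with IXA4 and 445 with IXA6. The cytosolic log2 fold changes lay between -0.08 and 0.12 with IXA4 and between -0.13 and 0.10 with IXA6. Their medians were -0.01 and -0.015, against -0.0019 and 0.00053 over all genes. For GARS the libraries had 318, 299.99 and 305 CPM with IXA4 and 286, 280.1 and 289 CPM with IXA6. Its 95% interval against DMSO was -0.11 to 0.08 with IXA4 and -0.22 to -0.03 with IXA6. KARS had 289.6 and 286 CPM with IXA1, 276, 277 and 274 CPM with IXA4 and 269.7, 262 and 274 CPM with IXA6, against 275, 291 and 282 CPM with DMSO. The IXA1 and IXA4 libraries overlapped those of DMSO and the IXA6 libraries lay just below them, at -0.07 (edgeR adjusted p = 0.376). The cytosolic sums were 5753 ± 21.98 CPM with IXA1 (SD, n = 2), 5352 ± 20.9 CPM with IXA4 and 5314 ± 123 CPM with IXA6 (SD, n = 3 each).

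Comparing the compounds directly at their single time of 4 h, IXA1 exceeded IXA6 in 3 of the 36 enzymes and IXA4 in 1. These counts are near the shares of all genes called, so they are not read as particular to these enzymes. Against IXA6, with 7.35% of all genes called and 4.53% higher, IXA1 was higher for GARS by a log2 of 0.33 (SE 0.05, edgeR adjusted p = 0.000722) and for YARS by 0.33 (SE 0.06, edgeR adjusted p = 0.00225). SARS was higher by 0.22 (SE 0.05, edgeR adjusted p = 0.0176), a call lost without IXA1 replicate 1, IXA1 replicate 2 or IXA6 replicate 2 (edgeR adjusted p of 0.202, 0.0743 and 0.0542). For YARS the IXA6 libraries had 307, 300.5 and 325 CPM, all below the IXA1 libraries. Against IXA4, with 2.58% of all genes called and 1.90% higher, IXA1 was higher for GARS by 0.22 (SE 0.05, edgeR adjusted p = 0.0228). That call was lost without IXA1 replicate 1, IXA1 replicate 2, IXA4 replicate 2 or IXA4 replicate 3 (edgeR adjusted p of 0.133, 0.191, 0.098 and 0.0855). Between IXA4 and IXA6 none of the enzymes was called, and 0.00% of all genes. There edgeR passed 4 cytosolic and 1 mitochondrial enzymes at an unadjusted p below 0.05, beside 9.23% of all genes. DESeq2 called 0 enzymes there, beside 21 genes in all. The 95% intervals of the 20 cytosolic enzymes reached at most from -0.24 to 0.26.

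Set against the IXA compounds, Tg was higher in the same number of cytosolic enzymes, 15 of 20, in each comparison, and lower in none. Tg called 33.9%, 34.4% and 31.0% of all genes against IXA1, IXA4 and IXA6, with 17.9%, 18.4% and 16.8% higher and 15.9%, 16.0% and 14.2% lower. GARS exceeded its IXA1, IXA4 and IXA6 level by log2 values of 0.67, 0.89 and 1.00 (SE 0.05 in each). YARS did so by 0.34, 0.52 and 0.67 (SE 0.06 against IXA1 and 0.05 against the others). Of the mitochondrial enzymes, 6, 4 and 5 were higher and 1, 5 and 2 lower with Tg. LARS2 was lower in all 3, with log2 differences of -0.21, -0.25 and -0.17 (SE 0.06, 0.05 and 0.05). Against IXA1, the 6 higher became 3 without IXA1 replicate 1 and 2 without IXA1 replicate 2. The call on LARS2 there was lost without IXA1 replicate 1 (edgeR adjusted p = 0.147), and 2 enzymes were lower without Tg replicate 2. Against IXA4, the 4 higher became 2 without IXA4 replicate 1, and the 5 lower became 3 without IXA4 replicate 3 or Tg replicate 3. Against IXA6, the 2 lower became 1 without IXA6 replicate 3, Tg replicate 1 or Tg replicate 3, the call on LARS2 being lost each time (edgeR adjusted p of 0.0728, 0.0805 and 0.0523), and 3 without Tg replicate 2.

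Of 18 further genes that handle, charge or proofread tRNA, 8 rose and 3 fell with Tg, and their median log2 fold change was 0.15. AARSD1, an alanyl-tRNA editing protein, had 29.3, 26.1 and 28.8 CPM with Tg and 6.53, 19.6 and 22.1 CPM with DMSO. Its log2 fold change of 0.81 (SE 0.30, edgeR adjusted p = 0.0423) leans on DMSO replicate 1, which stood far below the others, as did IXA4 replicate 1 at 5.81 CPM. XPOT, which exports tRNA from the nucleus, had 704, 592 and 619 CPM with Tg and 354, 382 and 382 CPM with DMSO, a log2 fold change of 0.78 (SE 0.06, edgeR adjusted p = 1.01e-10). SEPSECS, which completes selenocysteinyl-tRNA from the seryl-tRNA that SARS makes, rose by 0.59 (SE 0.14, edgeR adjusted p = 0.00183). Of the scaffold proteins of the complex, AIMP1 and AIMP2 rose by 0.17 and 0.24, and EEF1E1 had 0.14 (edgeR adjusted p = 0.0766). Among the falls were MTFMT, which formylates the mitochondrial initiator methionyl-tRNA, by 0.30, and GATC, a subunit of the mitochondrial glutaminyl-tRNA amidotransferase, by 0.22. QRSL1, another subunit of that amidotransferase, rose by 0.31. IXA1 and IXA4 changed none of the 18, with 1 and 3 passing at an unadjusted p below 0.05 in edgeR and 0 called by DESeq2 in each. IXA6 raised EEF1E1 by 0.22 (SE 0.06, edgeR adjusted p = 0.0461).

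Of 32 listed targets of the integrated stress response, 30 rose with Tg and ATF5 fell. DDIT3, a transcription factor of prolonged stress, had 112, 116 and 112 CPM with Tg and 5.76, 5.89 and 5.93 CPM with DMSO, a log2 fold change of 4.27. CHAC1, which degrades glutathione, rose by 4.54, and ADM2, a secreted peptide hormone, by 4.07. ASNS, which makes asparagine, had 502, 443 and 439.7 CPM with Tg and 154, 160.4 and 165 CPM with DMSO, a log2 fold change of 1.53 (SE 0.05, edgeR adjusted p = 1e-16). ATF4 itself rose by 0.68 (SE 0.05, edgeR adjusted p = 3.37e-10), and its RNA level is no measure of its translation. With IXA1, 13 of the 32 rose and none fell, led by CHAC1 at 2.04, ADM2 at 1.5 and SESN2, a stress-induced regulator of mTORC1, at 0.86. ATF4 rose by 0.40 (SE 0.06, edgeR adjusted p = 0.000276) and ASNS by 0.27 (SE 0.06, edgeR adjusted p = 0.0163) with IXA1, while DDIT3, at 0.28, was not called (edgeR adjusted p = 0.308). IXA4 raised 2 of the 32 and lowered none, and IXA6 raised 2, DDIT3 among them at 0.46, and lowered 2. The median over the list was 1.48 with Tg, 0.26 with IXA1, 0.08 with IXA4 and -0.01 with IXA6. Beside these, the medians over the cytosolic synthetases were 0.42, 0.10, -0.01 and -0.015. XPOT stands on this list and on that of the tRNA genes.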

How the data were processed

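RNA-seq libraries of HEK293T cells were compared between treatments. The authors deposited whole-number read counts per gene, made on build GRCh37.p13, and tables of their own comparisons made with DESeq, both per the submitters' processing notes. The aligner, the counter and any use of strand were not named there. Per the file headers, those deposited tables hold log2 fold changes with a standard error and a test score, p-values, and a mean normalised signal per gene. The count table has 15 library columns, and the 1 that matched no sample label was not used, so 14 libraries of the 15 samples entered. From the deposited counts, 1 model of all groups was fitted with edgeR 4.0.16 (limma 3.58.1, R 4.3.3) after TMM scaling, with quasi-likelihood tests and adjustment over 13243 genes. The default filter removed 0 genes, so the authors may already have dropped low counts: the fewest over the 14 libraries was 73 for any gene. Rows whose gene name had become a date numbered 22 and held 0.249% to 0.282% of counts per library. The biological coefficient of variation was 5.66%. Values are CPM scaled by TMM, fold changes are treated over control on the log2 scale, and SE is the size of the fitted change divided by the square root of its F statistic. DESeq2 1.42.0 was an alternative, as were other scalings, filters, a replicate block, a minimum fold and leaving out each library, and the fit was tested on simulated data. P-values measure the spread between these libraries. Genes with values in every library were the called enzymes, up to 8 largest rises and 5 largest falls per comparison with DMSO, any called with an IXA compound, and GARS and KARS. For the further tRNA genes and stress targets the 3 largest called changes, ASNS, DDIT3 and ATF4 were chosen. AARS, SARS and YARS with IXA1, and the other genes of those lists, were named after their values were seen. The enzymes and all lists were chosen with earlier results of these data known. The promoter positions printed here are of build GRCh38.p14, another build than GRCh37.p13, on which the counts were made. Exon overlaps were read from GENCODE v29. The values of 1 gene on the list of further tRNA genes are not reported here.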

Additional observations from a re-analysis of the deposited data

How the results depend on the processing

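The rises of the 15 cytosolic enzymes with Tg were the most stable result: 15 were called under each alternative but a minimum fold of 1.2, which left 12, and leaving out single libraries gave 15 to 16. Their median log2 fold change was 0.38 with upper-quartile scaling and 0.35 with library size alone, scalings that moved the median of all genes to -0.050 and -0.077, and the mitochondrial median was -0.056 with library size alone. Mitochondrial calls with Tg numbered 0 at the minimum fold and 6 to 8 without single libraries. For IXA1 the cytosolic count was 0 at the minimum fold, 4 with DESeq2, 4 with a fit of these 2 groups alone, and 0 to 1 without single libraries. The cytosolic median ran from 0.062 to 0.11 for IXA1 and from -0.053 to 0.0077 for IXA6 without single libraries, and the cause was not tested. IXA1 against IXA4 had 0 calls at the minimum fold, 4 with DESeq2, 7 with a fit of these groups alone and 0 to 1 without single libraries. IXA1 against IXA6 had 0, and Tg against IXA1, IXA4 and IXA6 had 8, 12 and 11, at the minimum fold. Of 1443 called values of single genes under alternatives, 146 were no longer called and 0 changed direction. The replicate numbers did not pair the libraries: 1 of 26 same-numbered pairs had a correlation of deviations over 0.1. With a replicate block 15 cytosolic and 10 mitochondrial enzymes were called with Tg, and 1 with IXA1, and it changed no other count of enzymes. IXA1 rests on 2 libraries, so leaving out either leaves 1.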

Other observations

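Some cytosolic enzymes have no single mitochondrial partner. EPRS, which charges glutamate and proline, had 874, 823 and 834 CPM with Tg and 571, 633 and 657 CPM with DMSO, a log2 fold change of 0.44. In the mitochondrion separate enzymes charge these amino acids, and their changes were smaller: EARS2, for glutamate, rose by 0.20, and PARS2, for proline, was not called at 0.15 (95% interval -0.05 to 0.36). The cytosolic phenylalanine enzyme has the subunits FARSA and FARSB, which rose by 0.32 and 0.39. FARS2, which works as a single chain in the mitochondrion, was not called at -0.02 (95% interval -0.23 to 0.19). In none of these cases was the difference between compartments tested.

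Libraries of 1 treatment differed in which cytosolic enzymes were highest. Of the 20, Tg replicate 2 held the highest Tg value for 10, AARS, CARS, HARS, IARS, MARS, QARS, SARS, VARS, WARS and YARS. It held the lowest for 7, DARS, EPRS, KARS, LARS, NARS, RARS and TARS. Tg replicate 1 held the highest value for 6, all of them among those 7, and the lowest for 13. Partly like splits were seen with IXA6, IXA4 and DMSO, and splits over all genes were not counted. With IXA6, replicate 3 held the highest value for 10, AARS, CARS, MARS, QARS, VARS, WARS and YARS among them. Replicate 1 held it for the other 10, which include DARS, EPRS, LARS, NARS, RARS and TARS. With IXA4, replicate 1 was highest for AARS, MARS, QARS, VARS, WARS and YARS among others. Replicate 3 was highest for DARS, EPRS, LARS, NARS and TARS, but also for CARS. With DMSO, replicate 1 was highest for AARS, CARS, VARS, WARS and YARS. Replicate 3 was highest for DARS, EPRS, LARS, RARS and TARS among others, and replicate 2 for MARS, NARS and QARS. Other genes changed sides. HARS, IARS and SARS, highest in Tg replicate 2, were highest in IXA6 replicate 1. KARS, lowest in Tg replicate 2, was highest in IXA6 replicate 3.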
